A study of Mus musculus with 9 samples.

Results

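The members described here are 44 genes of the Wnt pathway: ligands, their Frizzled and Lrp receptors, secreted inhibitors, intracellular components and targets. They were chosen by symbol, and each was read from the probe set with the highest mean over the arrays among probe sets annotated to that symbol alone. This gave values for 43 of the 44 members, out of 18193 genes measured on the arrays, and no value is given for Tcf7. The arrays hold RNA of sorted mouse retinal cells in 3 groups of 3 biological replicates, each a pool of retinae from 6 to 8 mice. Cells of rhoEGFP mice, in which GFP marks rod photoreceptors, were sorted at postnatal day 4 (P4) into a GFP-positive fraction (rhoGFP-positive) and a GFP-negative fraction (rhoGFP-negative). GFP-positive cells of pNestin-GFP mice, in which GFP reports the nestin promoter of neural progenitors, were sorted at postnatal day 0 (nestinGFP-positive, P0). All animals had the C57BL/6J-129/Ola background. The GFP-negative fraction is a mixture of retinal cells without rod-reporter signal, and the nestin group differs from both others in line and age.

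Wnt proteins are secreted lipid-modified ligands that bind Frizzled receptors, together with the co-receptors Lrp5 and Lrp6 when they stabilise beta-catenin. Stabilised beta-catenin joins Tcf and Lef factors in the nucleus, while other branches of the pathway act on cell polarity and movement without it. In the developing retina the pathway is known for its part in the ciliary margin, in progenitor proliferation and in the orientation of cells. Secreted Frizzled-related proteins (Sfrp) and Dickkopf proteins (Dkk) act outside the cell and can block or reshape the signal.

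The arrays carried the rod signal that the labels imply. All 7 measured rod markers were higher in the rhoGFP-positive cells than in the rhoGFP-negative cells, and their mean log2 signal was between 11.53 and 11.97 on the rhoGFP-positive arrays against 7.96 to 8.54 on the rhoGFP-negative and 7.0 to 8.03 on the nestinGFP-positive arrays. The narrowest of these differences was in Nrl, at 13.65 in the rhoGFP-positive against 12.58 in the rhoGFP-negative cells (2.09-fold) and 11.11 in the nestinGFP-positive cells. Rod transcripts were thus not confined to the GFP-positive fraction. Markers of other cells moved with the same groups. The mean of 7 progenitor markers was 7.73 to 8.21 in the rhoGFP-positive, 9.70 to 10.40 in the rhoGFP-negative and 10.61 to 10.70 in the nestinGFP-positive arrays, and 6 of the 7 fell in the rhoGFP-positive cells against either group. The exception was Nes, which encodes nestin: it was at 8.60 in both the nestinGFP-positive and the rhoGFP-negative cells and at 8.04 in the rhoGFP-positive cells, without a call, so its level did not separate the group sorted by its promoter from the rhoGFP-negative cells. Of 7 Müller glia markers 4 fell and 1 rose against the rhoGFP-negative cells, of 7 amacrine and ganglion markers 5 fell, and of 8 endothelial and mural markers 3 fell while Pecam1 and Cdh5 had group means of 4.11 to 4.56. Of 7 pigment epithelium markers 1 rose, of 4 ciliary margin markers 1 fell, and of 5 microglia markers none was called at P4. Of 4 astrocyte markers 1 fell, and of 4 lens markers none was called. Of 7 cell cycle markers 5 fell against the rhoGFP-negative cells. In this comparison 7.32% of all genes fell and 3.61% rose. Against the nestinGFP-positive cells all 7 cell cycle and all 7 amacrine and ganglion markers fell, with medians of -3.54 and -3.18, as did 4 of 7 Müller glia (1 rose) and 3 of 8 endothelial and mural markers. There 1 of 4 ciliary margin and 1 of 4 astrocyte markers also fell, and 1 of 5 microglia and 1 of 7 pigment epithelium markers rose. Of all genes 10.5% fell and 5.06% rose there. The part of these cells in the results below was not tested. The actin 3' minus 5' log2 difference was 0.91, 0.65 and 0.67 in the 3 groups, and probe sets for 18S ribosomal RNA averaged 12.1 to 13.6 on the replicate 1 arrays against 9.65 to 10.4 on the 6 others.

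Between the 2 fractions of P4 retinae, the Wnt members called were all lower in the rod-reporter cells. Dkk3 and Sfrp2, listed here as secreted inhibitors, fell most. The receptors Fzd7, Fzd3, Fzd5 and Fzd2, the ligands Wnt5a and Wnt5b and the nuclear factor Tcf7l2 fell with them. A member was called when limma gave an adjusted p below 0.05 and the difference was at least 2-fold. By this rule 9 of 43 members fell, against 7.32% of all genes, and 0 rose, against 3.61% of all genes; either direction made up 10.9% of all genes. An unadjusted p below 0.05 was found for 20 of 43 members and 33.7% of all genes. Without the 2-fold minimum 15 were lower, against 14.2% of all genes, and 1 was higher, against 10.1%. The members' median log2 difference was -0.24, beside 0.0094 over all genes. On 20 members every rhoGFP-positive array lay below every rhoGFP-negative array, which held for 20.3% of all genes, and on 5 every array lay above, which held for 17.9%. Fewer cells of a type and less RNA per cell cannot be told apart in such bulk samples.

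**Figure D1:**
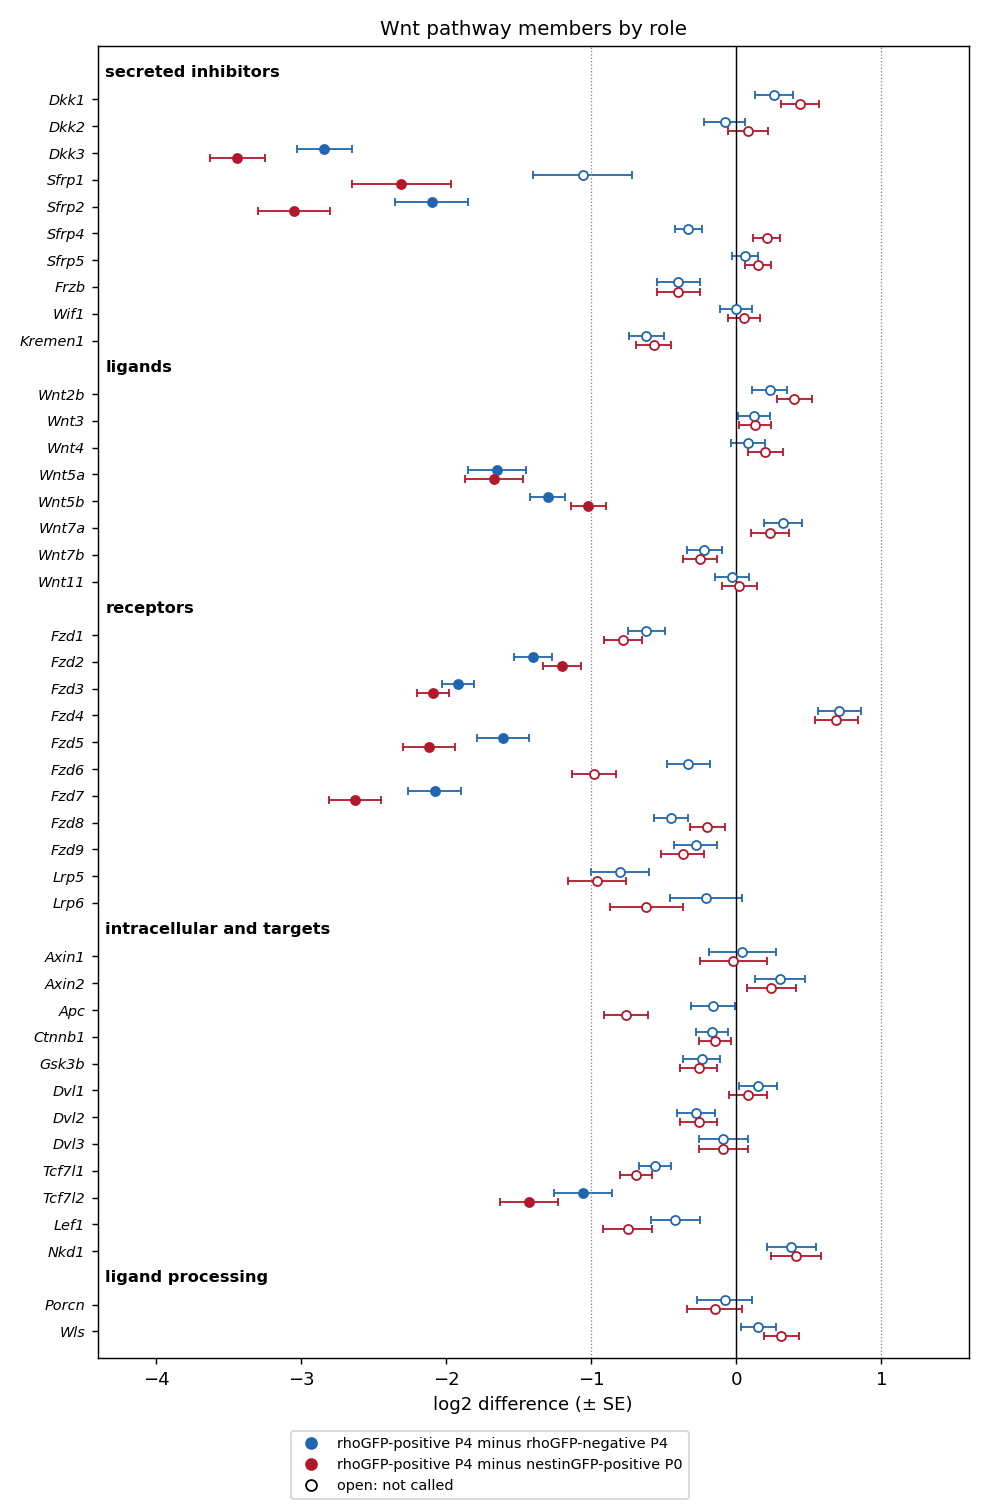
Log2 differences with their SE for the 43 measured members, grouped by role, between rhoGFP-positive and rhoGFP-negative cells (blue) and between rhoGFP-positive and nestinGFP-positive cells (red); filled points are called. Called members all lie left of -1, from Dkk3 at -2.84 to Tcf7l2 at -1.06 (blue) and from Dkk3 at -3.44 to Wnt5b at -1.02 (red), while most intracellular members lie near 0.

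Promoters are shown for 4 of the called members, so that the sequence before the start of genes that fell together can be read. Of the 10 members called in any comparison, 5 had a promoter in the RefSeq table (build GRCm38.p6), and so had 28 of all members, with 36 starts in all. In the 250 bases before each start, 2 motifs were searched on both strands: CTTTGA, the core bound by Tcf and Lef factors, and TAATCC, a core bound by the photoreceptor homeobox factors Crx and Otx2. CTTTGA or its reverse complement was found before 13.8% of 32851 starts in the table and before 7 of the 36 member starts, and TAATCC before 6.25% and before 4 of 36. The sequences run 5′ to 3′ along the gene and capitals mark a match.
Sfrp2 (chr3:83766071-83766320, plus strand): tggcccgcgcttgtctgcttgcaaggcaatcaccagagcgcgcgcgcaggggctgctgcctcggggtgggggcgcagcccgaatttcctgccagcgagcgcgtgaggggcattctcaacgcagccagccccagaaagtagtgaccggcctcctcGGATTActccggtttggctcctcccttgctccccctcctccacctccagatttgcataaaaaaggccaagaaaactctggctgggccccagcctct
Fzd7 (chr1:59481897-59482146, plus strand): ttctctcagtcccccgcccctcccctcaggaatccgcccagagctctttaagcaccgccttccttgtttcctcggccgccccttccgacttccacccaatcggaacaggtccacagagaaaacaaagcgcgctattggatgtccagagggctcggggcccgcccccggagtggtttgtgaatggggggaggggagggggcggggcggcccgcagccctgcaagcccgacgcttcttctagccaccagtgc
Tcf7l2 (chr19:55895071-55895320, plus strand): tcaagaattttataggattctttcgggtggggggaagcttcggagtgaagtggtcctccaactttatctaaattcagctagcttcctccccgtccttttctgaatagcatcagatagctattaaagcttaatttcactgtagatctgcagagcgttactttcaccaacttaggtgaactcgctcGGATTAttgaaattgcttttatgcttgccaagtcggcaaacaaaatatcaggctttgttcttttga
Wnt5b (chr6:119449387-119449636, minus strand): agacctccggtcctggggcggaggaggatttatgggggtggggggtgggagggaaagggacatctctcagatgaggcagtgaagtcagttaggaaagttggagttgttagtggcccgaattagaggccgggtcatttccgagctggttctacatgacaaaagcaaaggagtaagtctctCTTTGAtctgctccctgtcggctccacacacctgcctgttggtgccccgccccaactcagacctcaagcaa
The Sfrp2 and Tcf7l2 stretches each hold the homeobox core on the reverse strand, and the Wnt5b stretch holds the Tcf core. The Fzd7 stretch, like that of Fzd5, holds neither. Tcf7l2 has 2 starts in the table and Wnt5b 3, and the starts shown are the ones with a match.

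Among the 10 members listed here as inhibitors, Dkk3 and Sfrp2 fell in the rhoGFP-positive cells, against 7.32% of all genes, and 8 were not called. Whether each of them, Dkk3 included, blocks Wnt signalling in these cells was not tested. Dkk3, a divergent Dickkopf protein that is abundant in retinal progenitors and Müller glia, read 8.71, 8.17 and 8.77 (log2 signal) on the rhoGFP-positive arrays. It read 11.32, 11.15 and 11.68 on the rhoGFP-negative and 11.93, 11.86 and 12.16 on the nestinGFP-positive arrays. The groups did not overlap, and the nestinGFP-positive arrays were the highest. Dkk3 was 7.15-fold lower than in the rhoGFP-negative cells (log2 difference -2.84 ± 0.19 SE, limma adjusted p = 8.68e-06), and its second probe set gave -2.82. Sfrp2, whose promoter is printed above, encodes a secreted protein with a Frizzled-like ligand-binding domain. Its log2 signal was 6.70, 6.39 and 6.93 on the rhoGFP-positive, 8.67, 8.33 and 9.31 on the rhoGFP-negative and 9.65, 9.49 and 10.02 on the nestinGFP-positive arrays. The 3 groups stood in the same order as for Dkk3, again without overlap, and Sfrp2 was 4.28-fold lower than in the rhoGFP-negative cells (-2.10 ± 0.25, limma adjusted p = 0.000216).

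Sfrp1, a close relative of Sfrp2, had the widest spread within groups of the members described on single arrays. It read 5.67, 6.02 and 5.88 on the rhoGFP-positive, 6.45, 6.82 and 7.49 on the rhoGFP-negative and 7.41, 8.29 and 8.80 on the nestinGFP-positive arrays. The rhoGFP-positive arrays were below all others, while replicate 3 of the rhoGFP-negative group read above replicate 1 of the nestinGFP-positive group. Between the P4 fractions the difference of -1.06 ± 0.34 was not called (limma adjusted p = 0.0507). With the replicate number as a block it was called (limma adjusted p = 0.00241). It was also called without rhoGFP-negative replicate 1 (-1.30, limma adjusted p = 0.0303), without all replicate 1 arrays (-1.20, limma adjusted p = 0.0149) and in 3 other settings. Its 5 probe sets gave differences from -1.06 to -0.24, with -0.71 on averaging.

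The 7 other inhibitors were not called in any of the 3 comparisons. Kremen1, a transmembrane receptor through which Dickkopf proteins remove Lrp6, was lower by less than 2-fold (-0.62 ± 0.12, limma adjusted p = 0.00411), at 7.11 ± 0.098 (SD, n = 3) against 7.74 ± 0.15. Averaging its 3 probe sets gave -0.21 (limma adjusted p = 0.21). Sfrp4 showed a small difference of another shape, highest in the rhoGFP-negative cells at 6.73 ± 0.023 against 6.39 ± 0.079 in the rhoGFP-positive and 6.19 ± 0.077 in the nestinGFP-positive cells (SD, n = 3). Frzb, the founding Sfrp family member, was at 4.26, 4.67 and 4.67 in the same order, and Sfrp5 at 6.21, 6.15 and 6.06. Dkk1 (3.74 to 4.17), Dkk2 (2.79 to 2.95) and Wif1 (2.75 to 2.80) had group means at the low end of the scale, where RMA compresses differences and no detection call was available.

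Of 8 Wnt ligands, Wnt5a and Wnt5b fell in the rhoGFP-positive cells, against 7.32% of all genes, and the others were not called. Both encode ligands best known for signalling without beta-catenin. Wnt5a ran from 3.88 to 4.32 on the rhoGFP-positive, from 5.59 to 5.92 on the rhoGFP-negative and from 5.39 to 6.15 on the nestinGFP-positive arrays, a log2 difference of -1.65 ± 0.20 between the P4 fractions (limma adjusted p = 0.000216). Averaging its 4 probe sets, which ran from -1.65 to -0.05, gave -0.79 and no call. Wnt5b ran from 5.67 to 5.78, from 6.99 to 7.12 and from 6.63 to 6.97 in the same order, and its difference of -1.30 ± 0.12 (limma adjusted p = 3.75e-05) was close to the -1.18 of its second probe set. The rhoGFP-positive arrays were thus below all others for both ligands, and the 2 other groups overlapped for Wnt5a.

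The remaining ligands differed little. Wnt7a and Wnt7b, ligands that can signal through beta-catenin, had group means of 7.18 to 7.49 and of 7.51 to 7.76. Their differences between the P4 fractions were 0.32 ± 0.13 and -0.22 ± 0.12, without a call (limma adjusted p = 0.111 and 0.239). Wnt2b, known as a ligand of the ciliary margin and pigment epithelium, was at 5.30, 5.07 and 4.90, and Wnt4 at 5.68, 5.60 and 5.48. Wnt3 (3.10 to 3.23) and Wnt11 (4.41 to 4.46) had low signals throughout. Porcn, the acyltransferase that attaches the lipid to Wnt proteins, differed by -0.08 ± 0.19, and Wls, which carries them to the cell surface, had low signals of 3.34 to 3.65.

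Receptors held the most called members: 4 of 11 fell in the rhoGFP-positive cells, and on 9 of 11 every rhoGFP-positive array was below every rhoGFP-negative array, against 7.32% and 20.3% of all genes. Fzd7 read 4.84, 4.88 and 5.04 on the rhoGFP-positive, 6.99, 6.61 and 7.39 on the rhoGFP-negative and 7.70, 7.37 and 7.57 on the nestinGFP-positive arrays. It was 4.23-fold lower than in the rhoGFP-negative cells (-2.08 ± 0.18, limma adjusted p = 3.47e-05). The second Fzd7 probe set did not show this, with means of 6.20, 6.17 and 6.18, and averaging both gave -1.03. Fzd3, a receptor of axon guidance and planar polarity, read 9.08, 9.0 and 9.09 on the rhoGFP-positive, 10.92, 10.94 and 11.06 on the rhoGFP-negative and 11.34, 10.97 and 11.14 on the nestinGFP-positive arrays. Its replicates were close together and the gap between the P4 fractions was 3.78-fold (-1.92 ± 0.11, limma adjusted p = 4.77e-06). All 6 Fzd3 probe sets were lower, by -1.92 to -0.22, and their mean gave -1.04.

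Fzd5, a receptor of the eye field and of retinal progenitors, read 8.65, 8.40 and 8.70 on the rhoGFP-positive, 10.18, 9.97 and 10.42 on the rhoGFP-negative and 11.01, 10.36 and 10.74 on the nestinGFP-positive arrays. It was 3.05-fold lower than in the rhoGFP-negative cells (-1.61 ± 0.18, limma adjusted p = 0.000154), with a second probe set at -0.68. Fzd2 read 7.76, 7.76 and 7.77 on the rhoGFP-positive, 8.95, 9.08 and 9.47 on the rhoGFP-negative and 8.98, 8.99 and 8.93 on the nestinGFP-positive arrays. Both of the latter groups lay more than 1 log2 unit above the rod-reporter cells. The 2.65-fold difference of Fzd2 between the P4 fractions (-1.40 ± 0.13, limma adjusted p = 4.88e-05) was larger on its other probe sets, at -1.79 and -1.94.

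**Figure D2:**
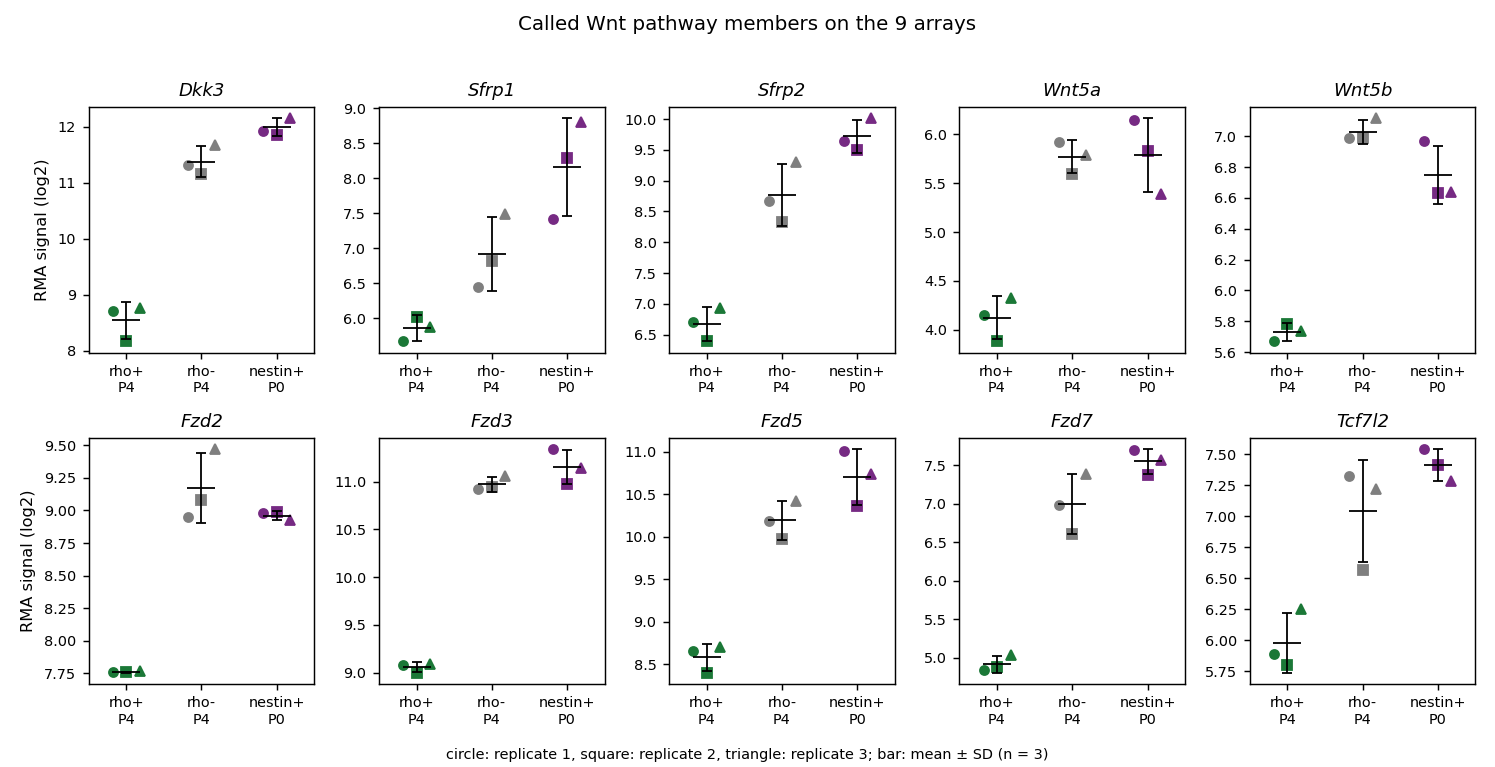
RMA log2 signal of the 10 members called in any comparison on each of the 9 arrays, with one panel per gene on its own axis (not starting at 0), symbols for replicates and bars for mean ± SD (n = 3). In every panel the 3 rhoGFP-positive arrays lie below the 6 others, and nestinGFP-positive arrays lie above rhoGFP-negative arrays without overlap for Dkk3 and Sfrp2.

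Fzd4 stood apart from the other receptors in sign. Fzd4, which also serves as the receptor for the ligand norrin in retinal vessels, averaged 6.71 ± 0.21 (SD, n = 3) on the rhoGFP-positive arrays, against 5.99 ± 0.22 on the rhoGFP-negative and 6.01 ± 0.13 on the nestinGFP-positive arrays. Every rhoGFP-positive array was above all others, but the difference of 0.71 ± 0.15 (limma adjusted p = 0.00599) did not reach 2-fold, and the 3 Fzd4 probe sets gave 0.13 to 0.71, with 0.46 on averaging. Fzd1 (-0.62 ± 0.13), Fzd8 (-0.45 ± 0.12) and the co-receptor Lrp5 (-0.80 ± 0.20) also had an adjusted p below 0.05 without reaching 2-fold (limma adjusted p = 0.00727, 0.0213 and 0.0143). The other Fzd1 probe set gave 0.06, and averaging both gave -0.28 (limma adjusted p = 0.0741). Fzd6 (-0.33 ± 0.15), Fzd9 (-0.28 ± 0.15) and the second co-receptor Lrp6 (-0.21 ± 0.25) did not. Lrp6 was lowest on replicate 1 within each group.

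The intracellular core of the pathway showed little difference between the P4 fractions. Ctnnb1, which encodes beta-catenin, was at 12.84 ± 0.12, 13.02 ± 0.12 and 12.99 ± 0.056 (SD, n = 3), taking the rod-reporter cells first, then the other P4 cells and the P0 cells. The members of its destruction complex were not called, with Axin1 at 0.04 ± 0.23, the scaffold Apc at -0.16 ± 0.15 and the kinase Gsk3b at -0.24 ± 0.13. Probe sets ran from -0.46 to -0.17 for Ctnnb1, 0.04 to 0.33 for Axin1, -0.46 to 0.22 for Apc and -0.36 to 0.27 for Gsk3b. The lowest Apc probe set, at -0.46 ± 0.12, had a limma adjusted p of 0.0252 over probe sets. Averaging gave -0.28 for Ctnnb1 and -0.18 for Apc, without a call. The Dishevelled genes, which relay the signal from Frizzled, differed by 0.15 ± 0.13 (Dvl1), -0.28 ± 0.13 (Dvl2) and -0.09 ± 0.17 (Dvl3). Axin1 read 8.80 to 8.95 on the replicate 1 arrays and 9.38 to 9.54 on the others. In all, 9 of 43 members were lowest on replicate 1 in all 3 groups, beside 20.1% of all genes.

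Of the nuclear factors, Tcf7l2 alone was called. It read 5.89, 5.80 and 6.25 on the rhoGFP-positive, 7.32, 6.57 and 7.22 on the rhoGFP-negative and 7.54, 7.41 and 7.28 on the nestinGFP-positive arrays. Replicate 2 of the rhoGFP-negative group lay lowest of the 6 higher arrays. The difference of -1.06 ± 0.20 (limma adjusted p = 0.00364) was close to the 2-fold minimum, and the call was lost with each array set to a common median (-0.97), on averaging its 4 probe sets (-0.61, limma adjusted p = 0.179), without rhoGFP-positive replicate 2 (-0.97), without rhoGFP-negative replicate 1 (-0.92) or 3 (-0.97), and without all replicate 1 arrays (-0.87). Tcf7l1, a factor that mainly represses targets, was lower by less than 2-fold (-0.56 ± 0.11, limma adjusted p = 0.00504), while its second probe set, with lower signal, gave -1.31. Lef1 was at -0.42 ± 0.17 (limma adjusted p = 0.117).

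Axin2 and Nkd1, negative regulators that are used as readouts because beta-catenin signalling induces them, were not called. Axin2 averaged 7.88 ± 0.11 (SD, n = 3) on the rhoGFP-positive arrays, against 7.58 ± 0.38 on the rhoGFP-negative and 7.64 ± 0.062 on the nestinGFP-positive arrays. Its arrays overlapped between the P4 fractions, with a difference of 0.30 ± 0.17 (limma adjusted p = 0.274). Nkd1 had means of 8.86 ± 0.26 and 8.48 ± 0.14 at P4, without overlap of the arrays but without a call (0.38 ± 0.17, limma adjusted p = 0.154), and its 4 probe sets gave 0.02 to 0.38.

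**Figure D3:**
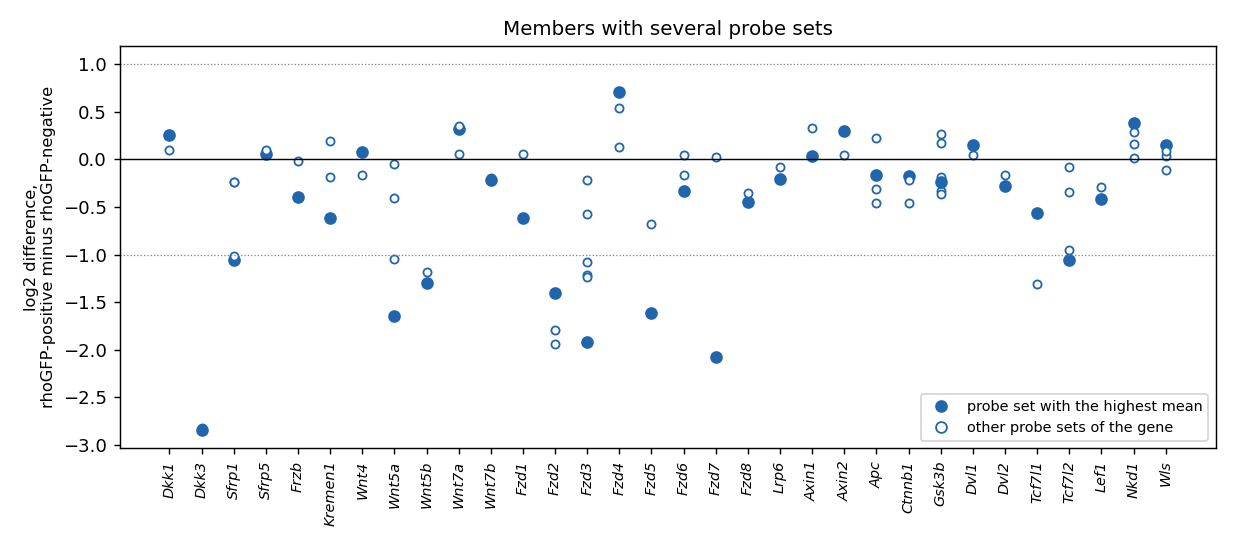
Log2 difference between rhoGFP-positive and rhoGFP-negative cells for each probe set of the 32 members with several; filled points are the probe sets used here. Dkk3 (its 2 points coincide), Fzd2 and Wnt5b agree closely between probe sets, while Fzd7 runs from -2.08 to 0.03 and Wnt5a from -1.65 to -0.05.

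Within the rhoGFP-negative group, replicate 3 was the highest array for 24 of all 43 members (55.8%), beside 36.6% of all genes. It was the highest for 8 of the 10 members called in any comparison, the exceptions being Wnt5a and Tcf7l2. Those 10 were called in part through these arrays, so their share cannot be set against that of all genes. The cell cycle markers moved with replicate 3, at a mean of 10.88 on that array against 9.40 and 9.28 on replicates 1 and 2, and the progenitor markers at 10.40 against 9.72 and 9.70. Their part in the result was not tested. Without that array 8 members were called, all of them among the 9.

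The comparison of rod-reporter cells at P4 with nestin-reporter cells at P0 sets the same rhoGFP-positive arrays against younger cells of another line. The same 9 members fell, and Sfrp1 was added: 10 of 43 fell, against 10.5% of all genes, and 0 rose, against 5.06% of all genes, by limma; called genes in either direction made up 15.6% of all. An unadjusted p below 0.05 was found for 25 of 43 members and 44.9% of all genes. Without the 2-fold minimum 17 were lower, against 19.8% of all genes, and 3 higher, against 16%. Every rhoGFP-positive array lay below every nestinGFP-positive array on 21 members, which held for 23.4% of all genes, and above on 6, which held for 24.4%. The median of the members was -0.26, beside 0.064 over all genes. Line, age and cell population differ together here and cannot be told apart, and both comparisons share the rhoGFP-positive arrays.

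Dkk3 and Sfrp2 had the widest differences among the members, while 7 of the 10 inhibitors were not called and the median of the 10 was -0.17. Dkk3 was 10.8-fold lower than in the nestinGFP-positive cells (-3.44 ± 0.19, limma adjusted p = 1.78e-06), Sfrp2 was 8.26-fold lower (-3.05 ± 0.25, limma adjusted p = 1.38e-05) and Sfrp1 was 4.95-fold lower (-2.31 ± 0.34, limma adjusted p = 0.000547). Averaging its 5 probe sets left Sfrp1 at -1.43 and called. Among receptors, Fzd7 (-2.63 ± 0.18), Fzd5 (-2.12 ± 0.18), Fzd3 (-2.09 ± 0.11) and Fzd2 (-1.20 ± 0.13) fell. Averaging probe sets left Fzd7 at -1.30 and Fzd3 at -1.12, both called. Fzd6 (-0.98 ± 0.15, limma adjusted p = 0.000721) and Lrp5 (-0.96 ± 0.20, limma adjusted p = 0.00365) came close to 2-fold, and each was called without certain arrays: Fzd6 at -1.03 without rhoGFP-positive replicate 1 and -1.13 without nestinGFP-positive replicate 2, while averaging its 3 probe sets gave -0.31. Lrp5 was at -1.02 without rhoGFP-positive replicate 3 and -1.09 without nestinGFP-positive replicate 1.

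Of the ligands and nuclear factors, Wnt5a fell by 1.67 ± 0.20 and Tcf7l2 by 1.43 ± 0.20, and averaging probe sets left them at -0.64 and -0.94, without a call. Wnt5b, at -1.02 ± 0.12 (limma adjusted p = 0.000103), lay at the 2-fold minimum, and its call was lost after a common median (-0.89), after quantile normalization (-0.92) and without rhoGFP-positive replicate 1 (-0.99) or nestinGFP-positive replicate 1 (-0.91). Tcf7l1 was called on averaging its probe sets (-1.15). Apc (-0.76 ± 0.15), Lef1 (-0.75 ± 0.17), Tcf7l1 (-0.69 ± 0.11), Fzd1 (-0.78 ± 0.13) and Kremen1 (-0.57 ± 0.12) had an adjusted p below 0.05 without reaching 2-fold (limma). So did Fzd4 (0.69 ± 0.15), Dkk1 (0.44 ± 0.13) and Wnt2b (0.40 ± 0.12) in the opposite direction. Averaging probe sets left Apc at -0.50, Lef1 at -0.47, Fzd1 at -0.30, Kremen1 at -0.06 (limma adjusted p = 0.696) and Dkk1 at 0.20 (limma adjusted p = 0.182). Axin2 was at 0.24 ± 0.17 and Nkd1 at 0.41 ± 0.17 (limma adjusted p = 0.305 and 0.0912).

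Between the rhoGFP-negative cells at P4 and the nestinGFP-positive cells at P0, limma called 0 of 43 members, against 0.605% of all genes lower, 0.385% higher and 0.989% in either direction; 9 of 43 had an unadjusted p below 0.05, against 18.1% of all genes, and limma with trend and robust settings also called 0. On 4 members every rhoGFP-negative array lay below every nestinGFP-positive array, which held for 8.79% of all genes, and on 3 above, which held for 11.8%. The members' median was -0.02, beside 0.034 over all genes. The widest difference was in Sfrp1, at -1.25 ± 0.34 (limma adjusted p = 0.0937), which was called with the replicate number as a block (limma adjusted p = 0.00472). It was also called without rhoGFP-negative replicate 3 (-1.53, limma adjusted p = 0.0366) and without nestinGFP-positive replicate 1 (-1.63, limma adjusted p = 0.0292). Sfrp2 was at -0.95 ± 0.25 (limma adjusted p = 0.0804) and was called without rhoGFP-negative replicate 3 (-1.22, limma adjusted p = 0.0125). Dkk3 was at -0.60 ± 0.19 (limma adjusted p = 0.131). Sfrp4, higher in the rhoGFP-negative cells by 0.54 ± 0.094 (limma adjusted p = 0.0258), was the only member with an adjusted p below 0.05, which 0.951% of all genes had with a higher and 1.08% with a lower level.

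A second list of 91 further genes of the pathway, 89 of them measured, went both ways between the P4 fractions. In the rhoGFP-positive cells 21 of 89 fell, against 7.32% of all genes, and 4 of 89 rose, against 3.61%, with a median of -0.15. Against the nestinGFP-positive cells 24 fell and 4 rose, against 10.5% and 5.06% of all genes. In the comparison of the 2 groups without rod-reporter signal 1 fell and 0 rose, against 0.605% and 0.385%.

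Families in this list split between paralogs. The planar polarity gene Prickle1 read 9.22, 9.36 and 9.17 on the rhoGFP-positive arrays against 6.63, 6.69 and 6.64 on the rhoGFP-negative arrays, a 6.04-fold rise (2.59 ± 0.093, limma adjusted p = 6.58e-07). Averaging the Prickle1 probe sets gave 1.19, and the call held. Its paralog Prickle2 fell, at 7.06, 6.40 and 6.43 against 8.80, 8.36 and 8.14 (-1.81 ± 0.21, limma adjusted p = 0.000174). Among the Groucho-type co-repressors, which bind Tcf factors in the absence of beta-catenin, Tle2 rose 5.08-fold (2.35 ± 0.29, limma adjusted p = 0.000273), at 9.46, 10.56 and 10.60 against 7.69, 8.10 and 7.79. Tle3 (-2.19 ± 0.17) and Tle1 (-1.31 ± 0.15) fell. The arrays of the P4 fractions did not overlap for any of these 5 genes.

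R-spondins and their Lgr receptors act against the ubiquitin ligases Znrf3 and Rnf43, which remove Frizzled from the surface. Of the 9 genes of these kinds 1 rose and 1 fell, against 3.61% and 7.32% of all genes, and Znrf3 (0.09) and Rnf43 (0.22) were not called. Rspo2 rose 2.36-fold (1.24 ± 0.20, limma adjusted p = 0.0014), though averaging its probe sets gave 0.79 and no call. Lgr5 was high in the rhoGFP-negative cells, at 8.78, 8.36 and 6.31, against 6.25, 5.49 and 5.26 in the rhoGFP-positive and 5.95, 5.24 and 5.44 in the nestinGFP-positive cells. Its fall of 2.15 ± 0.55 (limma adjusted p = 0.018) rested on few arrays, and the adjusted p was 0.0639 and 0.0649 without rhoGFP-positive replicate 2 or 3, and 0.0519 and 0.0706 without rhoGFP-negative replicate 1 or 2.

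**Figure D4:**
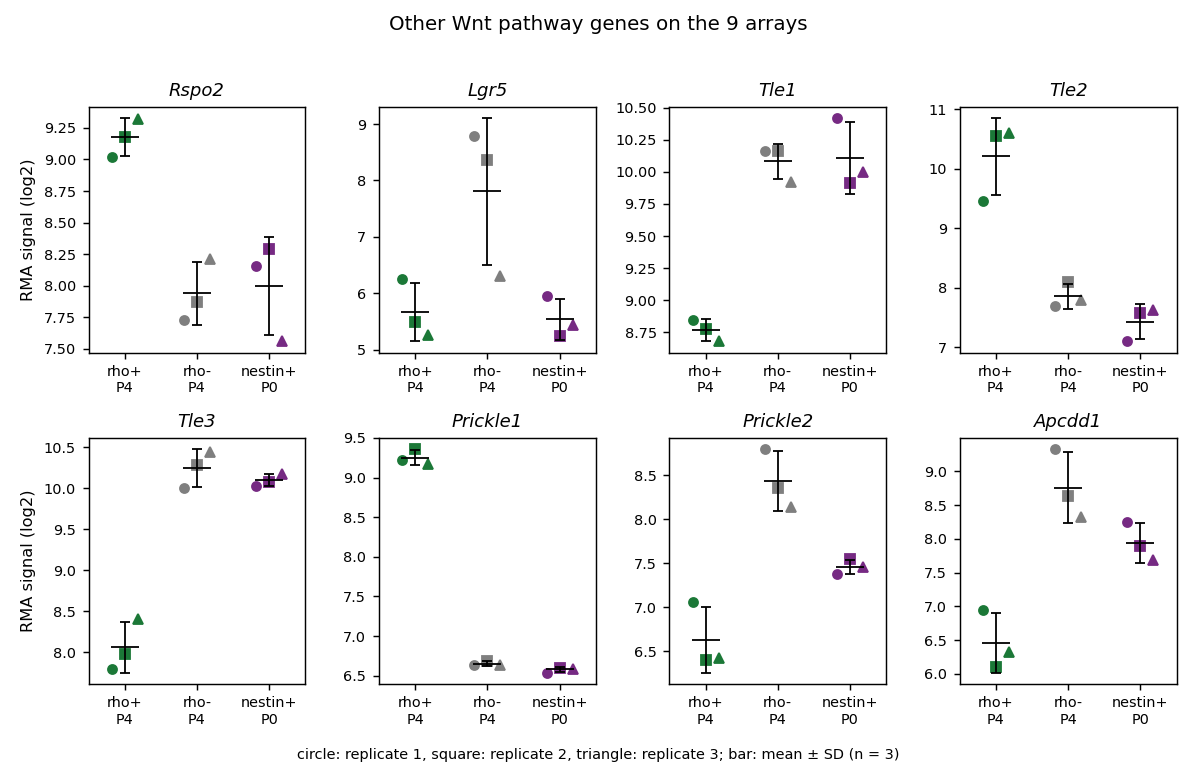
RMA log2 signal of 8 further pathway genes on each of the 9 arrays, with one panel per gene on its own axis (not starting at 0), symbols for replicates and bars for mean ± SD (n = 3). Rspo2, Tle2 and Prickle1 are higher and Tle1, Tle3, Prickle2 and Apcdd1 lower in all 3 rhoGFP-positive arrays than in the 6 others, while Lgr5 is high on 2 of the 3 rhoGFP-negative arrays.

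Further inhibitors fell in 5 of 9 measured, against 7.32% of all genes, with a list median of -1.02 beside 0.0094 over all genes. The widest were Igfbp4 (-2.32 ± 0.42, limma adjusted p = 0.00293), a secreted protein that can bind Lrp6, Apcdd1 (-2.30 ± 0.29, limma adjusted p = 0.000293), a membrane inhibitor, and Cthrc1 (-2.15 ± 0.27, limma adjusted p = 0.000285), a secreted glycoprotein known to favour the planar polarity branch. Apcdd1 was highest in the rhoGFP-negative cells, at 8.76 ± 0.52 (SD, n = 3) against 6.46 ± 0.44 in the rod-reporter and 7.94 ± 0.29 in the P0 cells, and averaging its probe sets gave -1.31. Sostdc1, a secreted antagonist which falls outside the rule for named genes and was chosen after its values were seen, was at -1.02 (limma adjusted p = 0.0419) with overlapping arrays. Its call was lost without rhoGFP-positive replicate 2 (limma adjusted p = 0.155) or 3 (0.141), without any single rhoGFP-negative array (0.0561 to 0.126), and in 4 other settings. Of 9 further receptors and co-receptors 4 fell, led by the receptor kinase Ror1 (-1.71 ± 0.24), Gpr124 (-1.49 ± 0.17), a co-activator of Wnt7 signalling in brain vessels, and the glypican Gpc4 (-1.23 ± 0.14). Ror1, a receptor for Wnt5a, was at -0.54 and not called on averaging its probe sets. None of 12 further ligands was called, against 7.32% of all genes lower and 3.61% higher. By a limma adjusted p below 0.05 alone, 1 was lower and 1 higher, against 14.2% and 10.1% of all genes.

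Among 25 further intracellular genes 4 fell and 2 rose, against 7.32% and 3.61% of all genes. Besides the Tle genes these included Apc2 (-1.63 ± 0.40, limma adjusted p = 0.0143), which fell, and Btrc (1.03 ± 0.098, limma adjusted p = 5.64e-05), the ubiquitin ligase subunit that recognises beta-catenin, which rose. Apc2 was at -0.56 and not called without _x_at and _s_at probe sets, and at -0.94 and not called on averaging all its probe sets. It also lost its call without rhoGFP-positive replicate 1 (limma adjusted p = 0.0525) or rhoGFP-negative replicate 2 (0.0588) or 3 (0.0514). Btrc was at 0.79 on averaging its probe sets and at 0.96 without rhoGFP-negative replicate 3, without a call. Planar polarity genes fell in 3 of 13 and rose in 1 (7.32% and 3.61% of all genes), with Vangl2 (-1.23 ± 0.10) and Celsr1 (-1.19 ± 0.30) beside Prickle2. Celsr1 lost its call without rhoGFP-positive replicate 2 (limma adjusted p = 0.0673), without rhoGFP-negative replicate 3 (limma adjusted p = 0.0621) and without all replicate 1 arrays (limma adjusted p = 0.0996).

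Of 12 measured genes described as Wnt targets 4 fell and 0 rose, against 7.32% and 3.61% of all genes. Id2 (-2.08 ± 0.27), a dominant-negative helix-loop-helix factor, and Ccnd1 (-1.91 ± 0.35), the cyclin of the G1 phase, were the widest, followed by Met (-1.36 ± 0.39), a receptor kinase. Met lost its call on averaging its probe sets (-0.58), without rhoGFP-positive replicate 1 (limma adjusted p = 0.0982) or 2 (0.0685), without rhoGFP-negative replicate 3 (0.0666) and without all replicate 1 arrays (0.0539). Ccnd1 read 10.13, 10.22 and 11.34 on the rhoGFP-positive and 11.99, 12.27 and 13.15 on the rhoGFP-negative arrays, so replicate 3 was high in both fractions. The cell cycle markers were also high on both replicate 3 arrays, at 8.54 against 7.61 and 7.50 in the rhoGFP-positive group, and their part in these differences was not tested.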

How the data were processed

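RNA of the 9 pooled samples was hybridised to Affymetrix expression arrays. The authors deposited RMA values on the log2 scale, per the submitters' processing notes, with a version not given in the sources used here. This method corrects background, normalizes between arrays and summarises probe sets, which compresses low signals. The table held 45101 probe sets, of which 34945 carried 1 gene symbol; 34741 of these were looked up by Entrez ID. Genes with several probe sets were read from the one with the highest mean, giving 18193 genes. Without detection calls, precision is limited by the number of arrays, with a median SE of 0.14 log2 units.

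A single model in limma 3.58.1 (R 4.3.3; lmFit and eBayes, two-sided) gave the differences, from 1 fit of all 9 arrays with 3 group means, with Benjamini-Hochberg adjustment over 18193 genes. The steps were tested on simulated data with independent arrays and added differences above the 2-fold minimum. That test covers neither arrays that vary together nor differences close to the minimum. Members and gene lists were chosen with earlier results of these data known. Values on every array are given for each member called in any comparison whose highest group mean was above the median of all genes, 7.17, and group means or ranges for the other members. Further pathway genes were named when called between the P4 fractions, at most the 3 widest each way per list; which of these are given or plotted array by array was chosen after their values were seen. Promoters came from RefSeq, GRCm38.p6.

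The 3 groups share replicate numbers, which no label ties to a shared pool. Deviations from the group mean, set against those of the array with the same number, had correlations of 0.62, 0.45 and 0.45 for the P4 fractions. Arrays of different numbers had -0.49 to 0.074 there. For the pair of groups without rod-reporter signal, same-number arrays had 0.54, 0.15 and 0.23. That pair differs in line and age, so its same-numbered arrays cannot come from the same mice. There, rhoGFP-negative replicate 2 had 0.22 with nestinGFP-positive replicate 3, above its same-number value of 0.15. Numbers were taken to pair arrays in both cases, a choice made from the data rather than the design. For rhoGFP-positive against nestinGFP-positive the same-number values were 0.52, -0.0081 and 0.25, and were not read as showing pairing. The replicate block was nonetheless run for this comparison as well, so its block result also treats same-numbered arrays as pairs. Pairing entered only the replicate block, an alternative, and the differences, SE and p of the main fit are unpaired. Alternatives were the replicate block, other ways of using probe sets, scaling, filtering and moderation, the 6 arrays compared alone, no minimum difference, and leaving out arrays. Figures were drawn with matplotlib 3.10.9.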

Additional observations from a re-analysis of the deposited data

How the results depend on the processing

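Members called numbered 9, 10 and 0 in the comparisons of rhoGFP-positive with rhoGFP-negative, rhoGFP-positive with nestinGFP-positive and rhoGFP-negative with nestinGFP-positive cells, and further pathway genes numbered 25, 28 and 1. Without a minimum difference, where calls rest on the adjusted p alone, they numbered 16, 20 and 1, and 44, 45 and 3. Leaving out single arrays, or all replicate 1 arrays (chosen after seeing the data), gave 8 to 9, 10 to 11 and 0 to 2 members and 19 to 25, 26 to 29 and 0 to 4 further genes. In the third comparison the replicate block, which treats same-numbered arrays as pairs, called 1 member and 3 further genes. There, a common median and quantile normalization each called 2 further genes, and the mean of probe sets, leaving out dim genes and the 6 arrays alone each called 0; the cause was not tested. Pairing changed no other count by over 1.5 times. The alternatives for further pathway genes were chosen after seeing the data. No member's call changed direction under the alternatives run. Among the members, 5 calls were lost under at least 1 alternative, those of Wnt5a and Tcf7l2 in both comparisons of the rhoGFP-positive cells and that of Wnt5b against the nestinGFP-positive cells. Low signals limit what can be said of Dkk1, Dkk2, Wif1, Frzb, Wnt3, Wnt11 and Wls. They also limit the size of the Wnt5a differences, since Wnt5a averaged 4.12 in the rhoGFP-positive cells.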
